A study of Mus musculus with 8 samples.

Results

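The 10 genes described here cover spermatogonial niche signals and the germ cells they act on. They are the ligand genes Gdnf and Kitl, the receptor genes Gfra1, Ret and Kit, and the germ cell genes Zbtb16, Uchl1, Sohlh1, Sohlh2 and Dmrt1. They were chosen by name, and every experimental spot whose gene name was one of them was taken. Spots were found for 8 of the 10 genes, in 11 probes of the 41174 on the array. Zbtb16 and Sohlh1 were not analysed here, since no spot carried their name, accession or older symbol. Only 4 genes, Gfra1, Kit, Uchl1 and Sohlh2, had a probe bright enough to be tested, among 22975 such probes of 16969 genes.

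Adult male C57BL/6J mice received di-(2-ethylhexyl)-phthalate (DEHP), a plasticizer, in corn oil at 200 mg/kg/day by gavage for 21 days. Vehicle mice received corn oil alone. Dosing began at 18 weeks of age, the labels give the age of the sampled mice as 21 weeks, and each group held 4 mice. All animals were of the same strain and no genetic alteration is labelled. RNA came from areas of the right testis taken by laser capture and was amplified before labelling. The source and tissue labels call these areas rich in Sertoli cells, from the intermediate layer of the tubule epithelium, while the extraction text of the same samples names Leydig cells. Each DEHP mouse was paired with 1 vehicle mouse and the pair was hybridised on a pair of arrays with the dyes exchanged, giving 8 arrays in all. Pairs are numbered here by their DEHP mouse. The 4 arrays of each dye orientation were on a slide of their own, so slide and dye orientation cannot be told apart.

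Spermatogonial stem cells sit on the basement membrane of the tubule between Sertoli cells. Sertoli cells, with other somatic cells, secrete GDNF, which acts on the stem cells through the co-receptor GFRA1 and the receptor tyrosine kinase RET and favours self-renewal. KITL, also called stem cell factor, acts through the receptor tyrosine kinase KIT, which spermatogonia gain as they commit to differentiation and which Leydig cells also carry. ZBTB16 is a transcriptional repressor of undifferentiated spermatogonia, UCHL1 is a ubiquitin hydrolase abundant in spermatogonia, SOHLH1 and SOHLH2 are transcription factors of early differentiation, and DMRT1 is a transcription factor of spermatogonia and Sertoli cells.

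Detection differed between the 60-base probes of 1 gene. The following 3 probe sequences, which lie in coding sequence, are shown because for Gfra1 and Uchl1 the coding probe and the probe nearer the transcript's end gave opposite detection, and for Kitl neither gave a steady signal. They are printed 5′ to 3′ on the transcript's sense strand, all in lower case because no base in them is singled out.
Kitl probe A_52_P572571: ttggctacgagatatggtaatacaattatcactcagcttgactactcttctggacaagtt
Gfra1 probe A_52_P311022: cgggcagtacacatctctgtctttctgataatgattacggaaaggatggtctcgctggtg
Uchl1 probe A_52_P24308: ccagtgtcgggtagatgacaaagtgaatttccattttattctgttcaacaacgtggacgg
In the mm7 mouse genome the Kitl probe lies at chr10:99638154-99638213. The Gfra1 probe spans 767 bases at chr19:58154603-58155369 and the Uchl1 probe 1092 bases at chr5:66038170-66039261, so each of these crosses an exon junction. The Gfra1 coding probe was well above background in all 16 channels, whereas the other Gfra1 probe, A_52_P398998 at chr19:58153201-58153260, was so in 0 of 8 DEHP and 3 of 8 vehicle channels. For Uchl1 the order was the other way round: the coding probe was well above background in 0 of 16 channels, and probe A_51_P475049 at chr5:66042692-66042752 in all 16.

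Among all non-control spots, 49.8 to 59.5% were well above background in a channel, and none was saturated. The captured areas held Sertoli markers, with 18 of 22 listed genes bright enough to test, but not Gata4, Sox8, Espn or Abcb1a. Germ cell markers were also present: 13 of 16 further spermatogonial, 12 of 14 spermatocyte, 13 of 13 round spermatid and 14 of 14 elongating spermatid genes. Leydig markers passed for 9 of 13 genes, without Cyp11a1, Hsd3b6, Hsd17b3 and Lhcgr. Pair 2 stood apart in its dim probes: the SD of their log2 ratios of DEHP over vehicle was 0.032, against 0.14 to 0.19 in the other pairs. Without background subtraction that SD was 0.15 in pair 2 and 0.17 to 0.20 in the others, so the background correction narrowed the dim ratios of pair 2 as a set. Its effect on each member was not the same. The bright probes of pair 2 also had the narrowest spread, with an SD of 0.18 against 0.28 to 0.33 in the other pairs. With all 4 pairs, 0% of the 22975 probes passed an adjusted p of 0.05 in limma's moderated test, the smallest adjusted p being 0.902, and 4.59% had an unadjusted p under 0.05.

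The ligands were at the edge of detection. The single Gdnf probe, A_51_P147777 at chr15:7663781-7663840, was well above background in 2 of 8 DEHP and 1 of 8 vehicle channels. Its background-subtracted signal ran from 10.5 to 23.2 intensity units over the 16 channels with a median of 15.7, and it exceeded the 95th percentile of that channel's 153 negative control spots in 12 of 16. That percentile itself ranged from 8.95 to 16. The normalized log2 intensity of Gdnf was 7.04, 7.01, 7.01 and 6.98 in DEHP mice 1 to 4 and 6.95, 6.92, 7.01 and 6.93 in vehicle mice 1 to 4. Vehicle mouse 3 lay level with DEHP mice 2 and 3 and the other vehicle mice lay lower, so the groups overlap. The log2 ratio of DEHP over vehicle was 0.12, -0.0018, 0.081 and 0.027 in pairs 1 to 4, a mean of 0.056 ± 0.054 (SD, n = 4 pairs), and was above 0 on 6 of 8 arrays. In pair 2 it was near 0 without background subtraction too, at -0.0032. The scanner software's processed ratio was above 0 in all 4 pairs, at 0.75, 0.040, 0.50 and 0.49 with a mean of 0.44. The probe did not pass the detection filter, so these values are given with no test. In tissue RNA of this kind, fewer cells of a type and less RNA per cell cannot be told apart.

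Kitl was read by 2 probes, neither bright enough to test. Probe A_51_P133936 at chr10:99661255-99661314 was printed in 10 spots and was well above background in 3 of 8 DEHP and 1 of 8 vehicle channels. Taken spot by spot, 42 of 160 readings (26.2%) were well above background. The log2 intensity was 6.93, 7.11, 6.95 and 7.04 in DEHP mice 1 to 4 and 7.0, 6.91, 7.08 and 7.03 in vehicle mice 1 to 4, with the highest and 2 of the lowest 3 values among DEHP mice. The log2 ratios of DEHP over vehicle were 0.015, 0.030, -0.081 and 0.038 in pairs 1 to 4, with a mean of 0.00067 ± 0.055 (SD, n = 4 pairs). DEHP mouse 2 gave the highest background-subtracted signal of the 8 mice: 32.7 in Cy5 beside 14.6 for its vehicle mouse on the same array, and 24.3 in Cy3 beside 16.3 on the exchanged one. In pair 2 the ratio without background subtraction was 0.28, so the ratio of that pair was nearer 0 with the correction than without it. The other 3 pairs gave 0.038, -0.085 and 0.041 by that route, with both signs. The coding probe of Kitl was well above background in 0 of 16 channels and exceeded the negative controls' 95th percentile in 8.

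**Figure D1:**
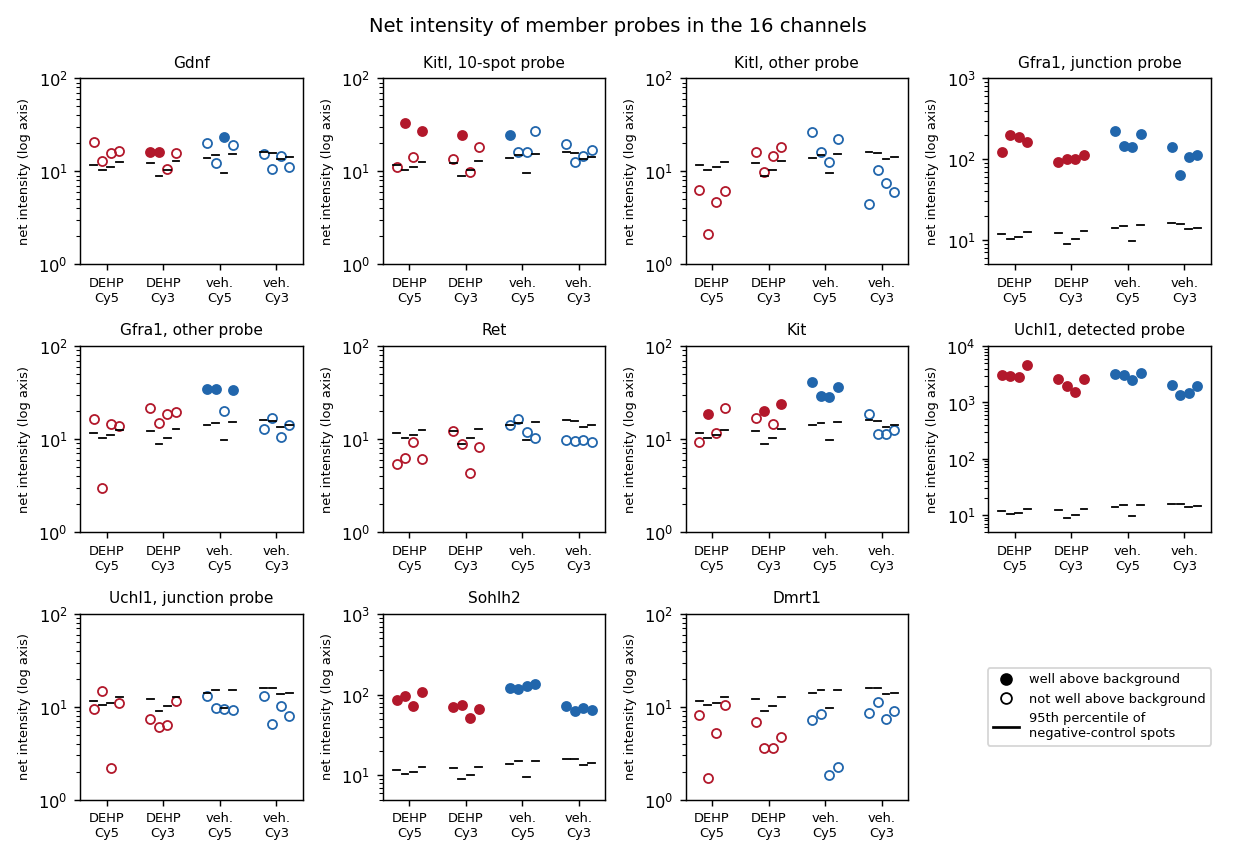
Background-subtracted (net) intensity of all 11 member probes in the 16 channels on a log axis, by group and dye, filled where well above background, with short bars at each channel's 95th percentile of the negative controls. The detected Uchl1 probe lies at 1360 to 4641 and the Gfra1 junction probe and Sohlh2 at 52.0 to 226, while Gdnf and Kit lie at 9.35 to 41.1, close to the controls.

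The GDNF receptor genes differed in detection. Ret, the kinase that carries the GDNF signal into the cell, was printed in 10 spots (probe A_51_P324191 at chr6:118179346-118179405). It was well above background in 0 of 16 channels and in 13 of 160 single readings (8.12%), with background-subtracted signals of 4.28 to 16.3. No level of Ret can be compared between the groups.

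Gfra1, the co-receptor that binds GDNF, was measured in every channel by its junction probe. Its log2 intensity was 7.92, 8.10, 8.23 and 7.89 in DEHP mice 1 to 4 and 8.21, 7.86, 8.07 and 8.05 in vehicle mice 1 to 4. Both the highest and the next to lowest of the 8 values belonged to DEHP mice, and the groups overlapped throughout. Within pairs the log2 ratio of DEHP over vehicle was 0.056, 0.026, 0.18 and -0.32, a mean of -0.016 ± 0.21 (SD, n = 4 pairs; limma adjusted p = 0.988). The 95% interval of the mean, -0.25 to 0.22, corresponds to a fold of 0.841 to 1.16 for the ratios as processed here. With a smaller offset of 10 added to all signals the SD over pairs was 0.27. With the scanner software's processed ratio it was 0.33. The fold range is therefore not a bound on the difference in expression. Pair 4 alone gave a clearly negative ratio, on both of its arrays (-0.29 and, with the dyes exchanged, -0.35), and without pair 4 the mean was 0.086. The authors' deposited table showed the same order, with ratios of 0.19, 0.15, 0.27 and -0.44 and a mean of 0.040, so the sign of the mean depended on the processing while pair 4 was the lowest in both. The end probe of Gfra1 passed in 3 vehicle channels, all of them Cy5, and in no DEHP channel, and no fold is given because the bound that detection allows was under 1.

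Kit, the receptor for KITL, passed the detection filter through the vehicle channels only. Its probe, A_51_P355906 at chr5:75074515-75074574 in 10 spots, was well above background in 3 of 8 DEHP and 4 of 8 vehicle channels. The vehicle channels that passed were all 4 in Cy5 and 0 of 4 in Cy3, and the DEHP channels 1 of 4 in Cy5 and 2 of 4 in Cy3. Background-subtracted signals averaged 33.8 for vehicle and 15.3 for DEHP in Cy5, and 13.5 for vehicle and 18.9 for DEHP in Cy3, which are opposite orders. Vehicle in Cy5 and DEHP in Cy3 were read on the same slide, so each of these orders is also a comparison between slides. The log2 ratio was -0.043, 0.0013, -0.037 and -0.034 in pairs 1 to 4, with a mean of -0.028 ± 0.020 (SD, n = 4 pairs; limma adjusted p = 0.944). Log2 levels were 6.94, 7.0, 6.97 and 7.05 in DEHP mice 1 to 4 and 7.08, 6.98, 7.0 and 7.01 in vehicle mice 1 to 4. The 2 groups overlap and lie at the low end of the scale, where the offset added to all signals pulls ratios towards 0. With the scanner software's processed ratio the mean turned to 0.17 through pair 2 alone, the pairs giving -0.47, 1.72, -0.37 and -0.20. The sign of the mean also turned with the arrays that had DEHP in Cy5 alone (0.0017). Leydig cells also carry KIT. The Leydig marker genes had median log2 ratios of -0.14, 0.14, -0.28 and -0.21 in pairs 1 to 4, with the sign of Kit in each pair. Their summed intensities ranged from 6748 to 15990 in DEHP mice and from 6607 to 15530 in vehicle mice. In pair 2 the sum was 15990 in the DEHP mouse and 6607 in its vehicle mouse. The part of these marker genes in the Kit values was not tested.

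**Figure D2:**
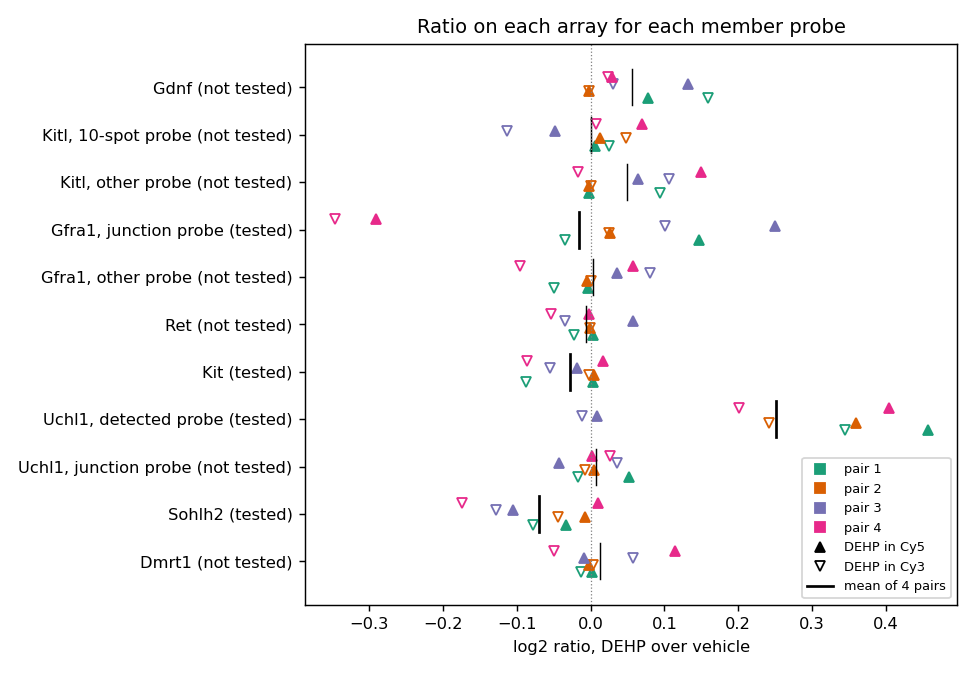
Log2 ratio of DEHP over vehicle for each of the 11 member probes on each array, coloured by pair, with triangles for dye orientation and a bar at the mean of the 4 pairs. The detected Uchl1 probe lies above 0 in pairs 1, 2 and 4 and near 0 in pair 3, and both pair 4 arrays of the Gfra1 junction probe lie at -0.29 or below.

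Uchl1, the spermatogonial ubiquitin hydrolase, was the brightest of the members, with a background-subtracted signal of 1360 to 4641, and the one furthest from 0. Its log2 intensity was 11.58, 11.41, 11.27 and 11.61 in DEHP mice 1 to 4 and 11.30, 11.18, 11.11 and 11.27 in vehicle mice 1 to 4. DEHP mice 1, 2 and 4 lay above every vehicle mouse, and DEHP mouse 3 lay level with vehicle mice 1 and 4, so the groups overlapped by that mouse alone. Within pairs the log2 ratio was 0.40, 0.30, -0.0022 and 0.30, a mean of 0.25 ± 0.17 (SD, n = 4 pairs), or 1.19-fold with a 95% interval of 1.03 to 1.37. It was above 0 on 7 of 8 arrays, with means of 0.31 where DEHP was labelled with Cy5 and 0.19 where it was labelled with Cy3. Limma gave an adjusted p of 0.902, so the difference did not pass over the whole array. In the main setting, Uchl1 was the only one of the 4 tested members whose unadjusted p was under 0.05. At that level 2.3% of all probes were higher in DEHP mice, and 4.59% differed in either direction. Uchl1 did not reach that level with the scanner software's processed ratio, with median centring or in the authors' deposited ratios. Nor did it without pair 1, without pair 2 or without pair 4. Uchl1 reached it in each of the other settings. Without the detection filter, Sohlh2 reached it too. The authors' deposited ratios for the same probe were 0.40, 0.33, 0.0015 and 0.32 in pairs 1 to 4, where pair 2 rested on 1 array.

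The Uchl1 ratio stood at the 98th percentile of all tested genes, and its SD over pairs at the 54.2 percentile mark. Beside these values, the Sertoli marker genes had median log2 ratios of 0.087, 0.12, -0.12 and 0.028 in pairs 1 to 4, with summed intensities of 44940 to 62250 in DEHP mice and 39970 to 55440 in vehicle mice. The further spermatogonial markers had medians of -0.014, 0.0032, -0.029 and -0.055, with sums of 16800 to 20920 and 19400 to 21210. Etv5, Nanos2 and Nanos3 of the spermatogonial markers did not pass the detection filter. The Sertoli medians were above 0 in the same 3 pairs as Uchl1, but the sizes differed. In pair 3 Uchl1 was near 0 (-0.0022, or 0.0068 with an offset of 10) beside a Sertoli median of -0.12. In pair 4 Uchl1 was 0.30 beside 0.028. The spermatogonial medians were above 0 in pair 2 alone. The part of either marker set in the Uchl1 values was not tested. The tested genes whose 4 pair ratios lay closest to those of Uchl1 were Defb19, a beta-defensin gene and one of the listed Sertoli markers, 2810004N23Rik, and Hsd17b10, a mitochondrial dehydrogenase gene. Their mean absolute differences from Uchl1 over the 4 pairs were 0.032, 0.052 and 0.054, against a median of 0.29 over all genes. Defb19 had log2 ratios of 0.47, 0.32, -0.0073 and 0.26 in pairs 1 to 4, on the brighter of its 2 tested probes. These genes were picked for this closeness, so their match with Uchl1 is not a separate result.

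**Figure D3:**
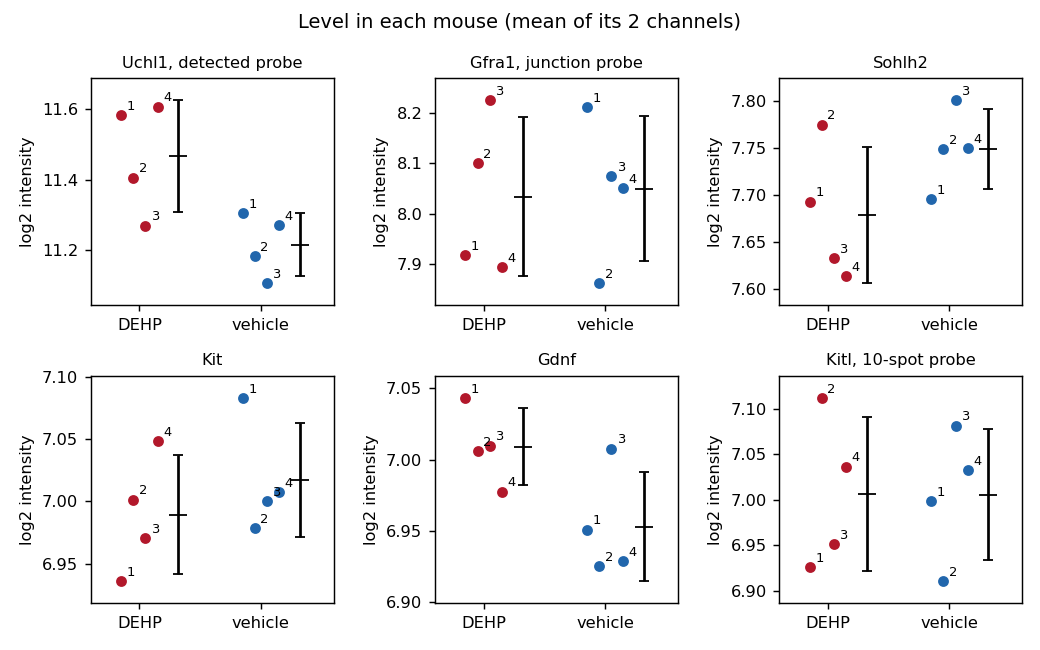
Normalized log2 intensity of 6 member probes in each mouse (points, numbered by mouse; mean of its 2 channels), with the mean and SD of each group of 4 mice; axes do not start at 0 and differ between panels. For Uchl1, DEHP mice lie at 11.27 to 11.61 and vehicle mice at 11.11 to 11.30, and in every panel the groups overlap.

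Sohlh2, a transcription factor that starts spermatogonial differentiation and acts upstream of Kit, was well above background in all 16 channels (probe A_51_P378699 at chr3:55338927-55338986). Its log2 intensity was 7.69, 7.77, 7.63 and 7.61 in DEHP mice 1 to 4 and 7.70, 7.75, 7.80 and 7.75 in vehicle mice 1 to 4. DEHP mice 1, 3 and 4 lay below every vehicle mouse, and DEHP mouse 2 lay among them. The log2 ratio was -0.056, -0.026, -0.12 and -0.082 in pairs 1 to 4, a mean of -0.070 ± 0.039 (SD, n = 4 pairs; limma adjusted p = 0.902). Sohlh2 was thus lower in all 4 pairs, as were 7.08% of all tested probes, and lower on 7 of 8 arrays. The authors' deposited ratios for it were larger, at -0.21, -0.20, -0.21 and -0.14 with a mean of -0.19. The 95% interval of the mean here was -0.18 to 0.037, for the ratios as processed. The mean was -0.093 with a smaller offset of 10 and -0.11 with the scanner software's processed ratio. The only Dmrt1 probe, A_52_P436393 at chr19:25303450-25303509, was well above background in 0 of 16 channels and never exceeded the negative controls' 95th percentile, with background-subtracted signals of 1.72 to 11.3.

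As a group, 0 of the 4 tested members passed the adjusted threshold, 1 had a mean above 0 and 3 below it. Their median log2 ratio was -0.022, with values of 0.0069, 0.013, -0.019 and -0.058 in pairs 1 to 4, against -8.9e-05 over all tested genes, whose 5th to 95th percentiles ran from -0.19 to 0.19. Kit entered this median only through its vehicle channels.

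The wider niche was described with 6 lists of related genes. Of 91 genes in them with a tested probe, 0 passed the adjusted threshold, 3 (3.3%, against 4.59% of all probes) had an unadjusted p under 0.05, and 5 were higher and 9 lower in all 4 pairs; over all probes 6.57% were higher and 7.08% lower in all 4 pairs. Over all 16969 tested genes, 8479 had a mean above 0 and 8490 below 0, which is the background for the direction counts that follow. Among the niche ligands and Sertoli-derived growth factors, 7 of 11 tested genes had a mean above 0 and the median was 0.019, or 0.0033 without pair 3 and 0.030 without pair 2. Egf, an epidermal growth factor gene, was lower in all 4 pairs at -0.10 ± 0.076 (SD, n = 4 pairs), and Igf2, a growth factor gene, gave -0.26 ± 0.33, mostly from -0.74 in pair 3. In the GDNF family list 8 of 14 genes had a mean above 0 and the median was 0.0051, or 0.019 without pair 3; it was -0.0070 with median centring of the arrays. The co-receptor genes Gfra4 and Gfra2 gave 0.26 ± 0.23 and 0.26 ± 0.29; the Gfra4 value had an unadjusted p under 0.05, but its other 2 tested probes gave 0.034 and 0.0087. The ratio of Gfra2 was 0.67 in pair 3 and 0.038 to 0.24 in the others.

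**Figure D4:**
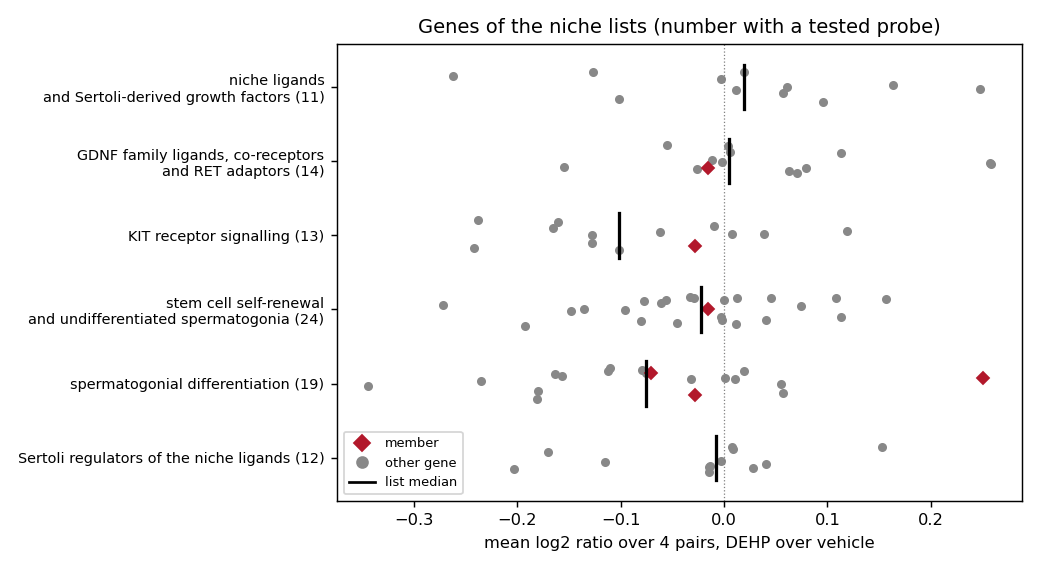
Mean log2 ratio of DEHP over vehicle over 4 pairs for each tested gene of the 6 niche lists (points; members as diamonds), with a bar at the list's median and the number of tested genes in brackets. Medians lie between -0.10 for KIT receptor signalling and 0.019 for niche ligands, and no gene passed the adjusted threshold.

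In the KIT receptor signalling list 10 of 13 tested genes had a mean below 0 and the median was -0.10. That median was below 0 in each of 17 other settings (-0.15 to -0.017) and was -0.040 without pair 4. Within pairs 1 to 4 the list median was -0.030, -0.0091, -0.24 and -0.055, lowest in pair 3. The list was not divided by whether a gene promotes or limits the signal, so its median gives no direction for KIT signalling. Kit is among the 10, and it entered only through its vehicle channels, the group where it was higher. None of its genes had an unadjusted p under 0.05, and 0 of 13 had the same sign in all 4 pairs, as 13.6% of all probes did. Pik3ca, a catalytic subunit of PI3 kinase, gave -0.24 ± 0.32, with an SD wider than its mean, and its second probe gave -0.023. The self-renewal list had 16 of 24 genes below 0 with a median of -0.022, which was 0.00077 in the 4 arrays with DEHP in Cy5, -0.039 without pair 2 and -0.035 without pair 1. Utf1, a chromatin factor of undifferentiated cells, was higher in all 4 pairs at 0.11 ± 0.089, and Lhx1, a GDNF-responsive transcription factor, gave 0.16 ± 0.16. The differentiation list had 13 of 19 below 0 with a median of -0.076, Kit again included. That median was below 0 in each of 17 other settings (-0.11 to -0.027) and was -0.036, -0.040 and -0.032 without pairs 1, 3 and 4. For this list and the KIT list, the settings that changed only the error model kept the same median by construction. Meioc, a gene needed for meiotic prophase, and Mki67, the proliferation marker, gave -0.34 ± 0.51 and -0.24 ± 0.36. The second probe of Mki67 gave -0.11. Among Sertoli regulators of the ligands 7 of 12 had a mean below 0 and the median was -0.0083, above 0 in 4 of 17 other settings (up to 0.060) and -0.048, -0.026, 0.0053 and -0.0027 without pairs 1, 2, 3 and 4. Notch1, the receptor gene, was lower in all 4 pairs at -0.20 ± 0.14 (unadjusted p under 0.05, limma adjusted p = 0.902) and its second probe gave -0.24. Rbpj, the transcription factor that NOTCH receptors act through, was also lower in all 4 pairs at -0.17 ± 0.17. NOTCH signalling is known to restrain Gdnf in Sertoli cells, and Gdnf itself was at the edge of detection here.

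Across 18 other settings, which changed the processing, filter, fit or arrays used, Uchl1 stayed above 0 and Sohlh2 below 0. In those that changed only the filter, the error model or the averaging of probes, these signs could not change. No member passed the adjusted threshold in any of the 18.

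**Figure D5:**
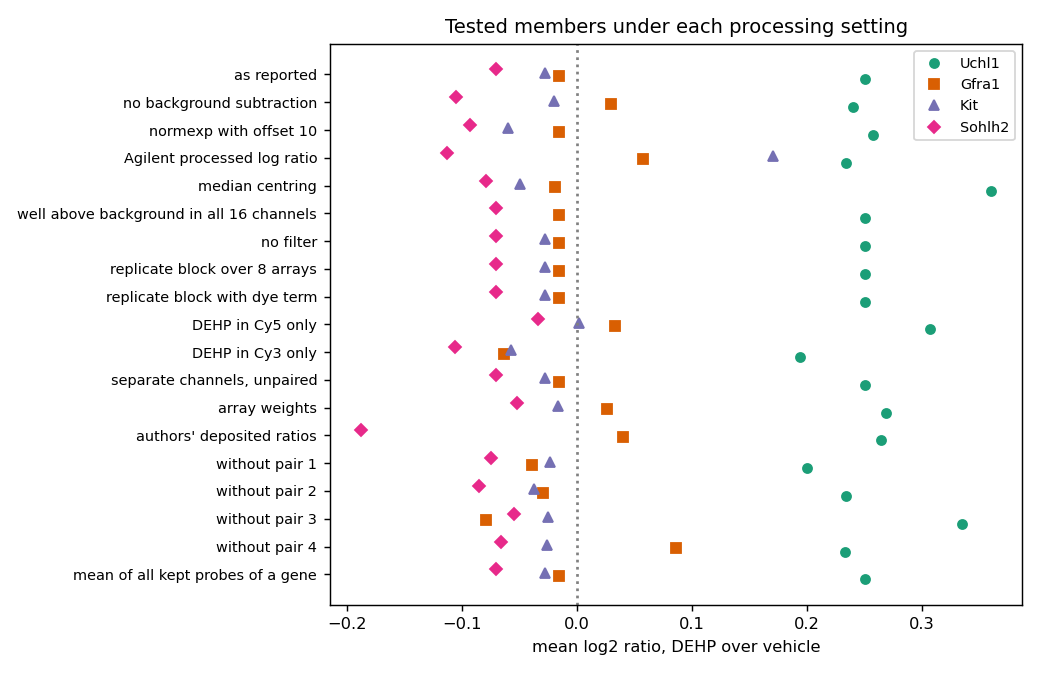
Mean log2 ratio of DEHP over vehicle for Uchl1, Gfra1, Kit and Sohlh2 as reported and under each other processing setting (rows). Uchl1 stays between 0.19 and 0.36 and Sohlh2 between -0.19 and -0.034, while Gfra1 and Kit take both signs.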

How the data were processed

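The genes and lists were chosen with earlier results of these data known. Spot intensities, background and flags were deposited as scanner output, per the file headers from Agilent Feature Extraction 9.5.1.1, with a log10 ratio of red over green. The authors' deposited table held log2 ratios, for which the submitters' processing notes name limma. Its scale and direction were found by setting it against the scanner ratios (correlation 0.943 to 0.972), its column medians were -0.0022 to 0.012, and its further steps are not given in the sources used here.

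Here limma 3.58.1 in R 4.3.3 was used: normexp (offset 50) and loess, control spots weighted 0, outlier spots left out, spots of a probe averaged, ratios turned to DEHP over vehicle, and the dye-swapped arrays of a pair averaged to 4 values. A probe was tested when 4 or more of the 8 channels of either group read it well above background, counted as the share of its spots reaching 0.5 or more; a gene was read by its brightest tested probe. P-values were adjusted by Benjamini-Hochberg over 22975 probes. Mouse levels came from loess and Aquantile. Pairing comes from the titles, and swapped arrays of a pair correlated at 0.544 to 0.717. The number of pairs limits precision. Named genes were all members, the 2 others per list with the smallest p, and the 3 closest to Uchl1; 1 gene that this rule names is not reported here. Probe positions are those of the files (mm7). The fit was tested on simulated data with changes of 2-fold and 4-fold, so that test does not cover smaller differences.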

Additional observations from a re-analysis of the deposited data

How the results depend on the processing

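Under every one of the alternatives run, limma called 0 probes, 0 members and 0 niche genes at an adjusted p of 0.05; with all pairs 1054 probes had an unadjusted p under 0.05. Uchl1 stayed above 0 and Sohlh2 below 0 in 18 of 18 alternatives. Those that changed only the filter, the error model or the averaging of probes left the estimates at 0.25 and -0.070, so the signs were fixed there. Gfra1 turned positive without background subtraction (0.030), with Agilent's processed ratio (0.058), with DEHP in Cy5 only (0.033), with array weights (0.026) and in the authors' deposited ratios (0.040); leaving out 1 pair at a time gave -0.079 to 0.086. Kit turned positive with Agilent's processed ratio (0.17) and with DEHP in Cy5 only (0.0017). The members' median moved to 0.11 with the processed ratio, 0.017 with DEHP in Cy5 only, -0.061 with DEHP in Cy3 only and 0.040 in the authors' ratios (3 members); without 1 pair it was -0.040 to 0.030. The cause was not tested. With all 8 arrays and the mouse pair as a replicate block, Uchl1 was 0.25 (limma adjusted p = 0.633), and the block changed no call. Array weights favoured pair 2 (2.72) over pairs 1, 3 and 4 (0.965, 0.849 and 0.448). Pair 2 had the narrowest ratios after background correction, and its swapped arrays correlated least (0.544, against 0.675 to 0.717). Its weight therefore need not mean better data. Signal near background limits Gdnf, Kitl, Ret, Kit and Dmrt1.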
